A study of Mus musculus with 4 samples.

Results

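The genes of oxidative phosphorylation were followed across the cell classes of whole mouse brain, in single-cell RNA sequencing of adult and aged mice fed diets with or without the fiber inulin. Members were chosen by symbol. Nuclear genes start with Nduf, Uqcr, Atp5, Sdha to Sdhd, Cox4i, Cox5, Cox6, Cox7 or Cox8, and mitochondrial genes start with mt-Nd, mt-Co, mt-Cytb or mt-Atp. Of 124 matching symbols among the 55573 genes listed, 115 were seen in at least 10 cells over the 4 libraries and were kept, against 25429 kept genes in all. The kept members comprised 102 nuclear genes and the 13 protein-coding genes of the mitochondrial genome. The 9 symbols below the limit included Cox8c, seen in 5 cells, and the members just above it were Ndufa11b with 13 cells and Atp5l2-ps with 30 cells.

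Oxidative phosphorylation takes place in the inner mitochondrial membrane, where complexes I to IV pass electrons from NADH and succinate to oxygen. Of these, I, III and IV pump protons, and complex V, ATP synthase, uses the proton gradient to make ATP. Complexes I, III, IV and V are built from subunits encoded in both genomes, whereas complex II (the Sdh genes) is encoded in the nucleus alone. The mitochondrial DNA is transcribed as long polycistronic RNAs that are then cut, and its transcripts are counted beside the nuclear ones in 3′ libraries. Several nuclear subunits of complex IV exist as alternative isoforms, classically described as a widely expressed form and a form of heart and skeletal muscle, testis or oxygen-sensing cells.

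By symbol, 50 nuclear members belonged to complex I, of which 8 were Ndufaf assembly factors, and 8 belonged to complex II, of which 4 were Sdhaf assembly factors. Those of complex I also included 3 processed pseudogenes and Ndufb1-ps, which is annotated as a non-coding RNA. Complex III had 8 nuclear members, and complexes IV and V had 18 each, with 1 processed pseudogene in each of the latter. Ndufa4 and its paralog Ndufa4l2 were counted with complex I by name, although the Ndufa4 protein is now described as a complex IV subunit. The mitochondrial members comprised 7 genes of complex I, 1 of complex III, 3 of complex IV and 2 of complex V.

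The samples were 4 whole brains of C57BL/6J mice, 1 each of adult mice fed 0% inulin, adult mice fed 5% inulin, aged mice fed 0% inulin and aged mice fed 5% inulin. Adult mice were 3 to 4 months old and aged mice 23 to 24 months old when the experimental diets began, and every diet was a purified AIN-93M base with 1% cellulose. Brains were dissociated enzymatically and depleted of myelin, debris and dead cells, and the suspensions held few neuron-like cells. With 1 mouse per combination, age was compared as 2 mice against 2 with the diets pooled, and diet as 2 against 2 with the ages pooled. Below, values of the 4 mice are given in the order adult 0%, adult 5%, aged 0% and aged 5% inulin.

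The libraries held 7881 to 10256 barcodes and 88248117 to 115814810 unique molecular identifiers (UMIs) each. After limits on UMIs (22005) and on the mitochondrial share (15.8%) of a cell, 28824 of 36876 barcodes remained, and 24284 of them (84.2%) fell into 9 classes gated on marker genes that hold no member. These classes were endothelial-like (8683 cells), microglia-like (6587), astrocyte-like (5106), ependymal-like (973), choroid-plexus-like (812), T/NK-like (620), smooth-muscle-like (568), pericyte-like (551) and granulocyte-like (384). Among the 10 genes of largest fold in a class, 2 (choroid-plexus-like, Ttr and Folr1) to 8 (microglia-like) were its own markers, and the astrocyte-like list also held 2 markers of another glial class. Neuron-like (250 cells) and neuroblast-like (417) groups had under 50 cells in some mouse and were not tested. The libraries shared 192 barcode sequences, and Scrublet called 2.59% to 3.80% of the cells doublets.

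Choroid-plexus-like cells devoted the largest share of their transcripts to the nuclear genes of oxidative phosphorylation. The 102 nuclear members took 8.65%, 7.93%, 7.80% and 7.96% of the UMIs of these cells in the 4 mice (mean 8.08% ± 0.382, SD, n = 4). Smooth-muscle-like cells followed with 3.06% ± 0.0320, then ependymal-like cells with 2.30% ± 0.0386, astrocyte-like cells with 2.18% ± 0.0773 and pericyte-like cells with 2.04% ± 0.145. T/NK-like cells had 1.86% ± 0.0860, endothelial-like cells 1.75% ± 0.0544, microglia-like cells 1.39% ± 0.0736 and granulocyte-like cells 1.04% ± 0.0928. The ranges of the 4 mice did not overlap between choroid-plexus-like and smooth-muscle-like cells, which differed by 5.02 percentage points, nor between smooth-muscle-like and ependymal-like cells, endothelial-like and microglia-like cells, or microglia-like and granulocyte-like cells. In between, the neighbours ependymal-like to endothelial-like overlapped. Each neighbouring pair held its order in 4 of 4 mice (exact sign-flip permutation test, two-sided p = 0.13, the smallest value that 4 pairs allow), except pericyte-like against T/NK-like cells, which held it in 3 of 4 mice (exact p = 0.25).

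The mitochondrial genes gave another order. The 13 mitochondrial members took 3.77%, 4.14%, 3.89% and 3.77% of the UMIs of smooth-muscle-like cells (mean 3.89% ± 0.175, n = 4), and the means were 3.18% ± 0.107 in astrocyte-like, 3.02% ± 0.170 in ependymal-like and 2.69% ± 0.292 in choroid-plexus-like cells. Pericyte-like cells had 2.34% ± 0.150, endothelial-like cells 2.16% ± 0.171, microglia-like cells 1.47% ± 0.206, T/NK-like cells 1.21% ± 0.138 and granulocyte-like cells 0.510% ± 0.0709. Ranges did not overlap between smooth-muscle-like and astrocyte-like cells, between endothelial-like and microglia-like cells, or between T/NK-like and granulocyte-like cells, and each neighbouring pair kept its order in 4 of 4 mice (exact p = 0.13) except astrocyte-like against ependymal-like cells (3 of 4 mice, exact p = 0.25). The limit on the mitochondrial share removed 12.8% to 20.3% of astrocyte-like barcodes and 0.499% to 2.76% of microglia-like barcodes. It removed 13.5% to 20.5% of choroid-plexus-like and 11.7% to 14.4% of smooth-muscle-like barcodes.

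**Figure D1:**
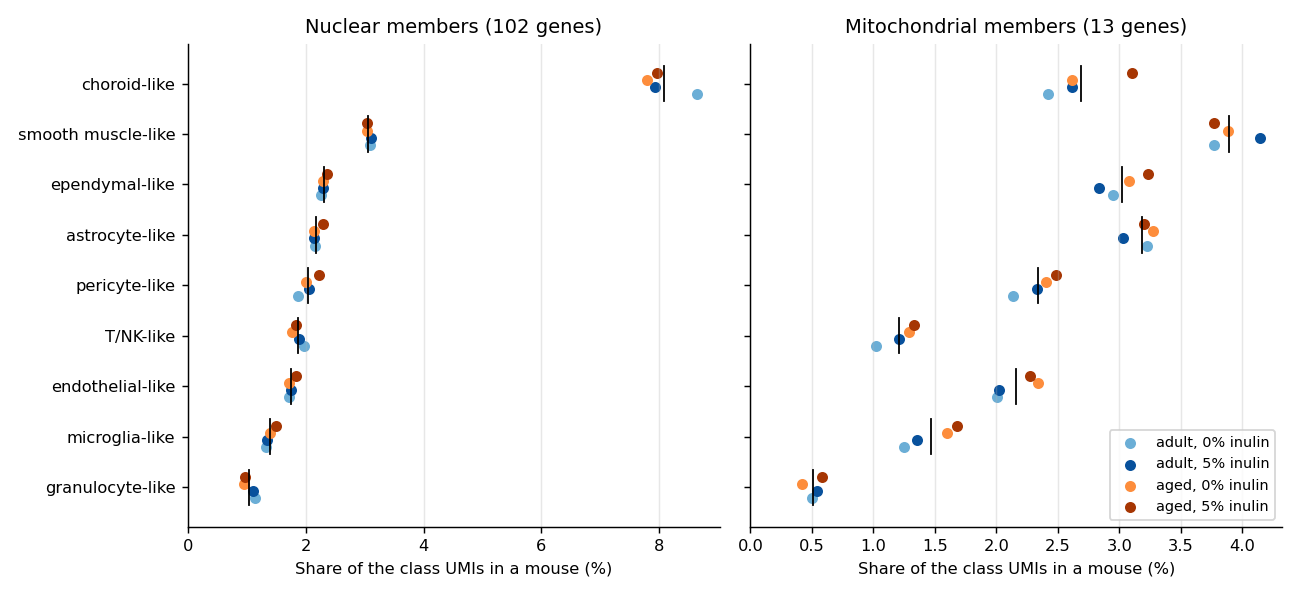
Share of all UMIs of a class (percent, horizontal axes, with the cell classes on the vertical axis) taken by the 102 nuclear and the 13 mitochondrial members in each cell class, with 1 point per mouse and the mean of the 4 mice as a line. Choroid-plexus-like cells stand at 7.80% to 8.65% for the nuclear members but within 2.42% to 3.11% for the mitochondrial members, where smooth-muscle-like cells are highest.

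The ratio of nuclear to mitochondrial UMIs therefore set the choroid-plexus-like cells apart. It was 3.57, 3.03, 2.98 and 2.56 in choroid-plexus-like cells (mean 3.04 ± 0.414), and 2.06 ± 0.284 in granulocyte-like and 1.56 ± 0.260 in T/NK-like cells. The other 6 classes had means from 0.686 ± 0.0304 in astrocyte-like cells to 0.954 ± 0.0921 in microglia-like cells. Choroid-plexus-like cells did not overlap with granulocyte-like cells, which came next in the order (4 of 4 mice, exact p = 0.13). The ratio counts UMIs and is compared between classes only, since a UMI of a nuclear gene and one of a mitochondrial gene need not be captured alike. The limit on UMIs of a cell removed 56.2% to 59.2% of choroid-plexus-like barcodes, more than in any other tested class. The limit on the mitochondrial share, which bears on the ratio directly, removed 13.5% to 20.5% of them.

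Gene by gene, choroid-plexus-like cells were higher than the mean of the other 8 classes for nearly every member. Of 98 nuclear members tested, 94 were higher and 2 lower (edgeR quasi-likelihood test on UMIs summed per mouse and class, mouse as a block, adjusted p under 0.05), where 32.2% of all 15736 genes tested were higher and 34.2% lower. All 13 mitochondrial members were higher as well. The median log2 difference was 2.32 for nuclear members and 0.81 for mitochondrial members, against -0.22 over all genes. By complex, the median was 2.18 for I, 1.69 for II, 2.60 for III, 2.48 for IV and 2.62 for V, and the 12 Ndufaf and Sdhaf assembly factors were all higher with a median of 1.23.

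Tissue isoforms led the list in choroid-plexus-like cells. Cox8b, a complex IV subunit known from heart and skeletal muscle, measured 397, 281, 762 and 966 CPM (counts per 1000000 UMIs of the class) there, and its mean was 18.7 CPM or less in every other class. All 4 mice were thus far above the other classes (log2 difference 7.78, SE 0.11). Cox6b2, the isoform of subunit VIb described in testis, had 438, 374, 382 and 356 CPM (log2 difference 5.36, SE 0.11). Cox7a1, another muscle isoform, had 147, 142, 123 and 132 CPM (5.04, SE 0.13), with no overlap with any other class. Atp5g1, which encodes the c subunit of the ATP synthase rotor, had 3530, 3118, 2951 and 2973 CPM (4.49, SE 0.07) and was among the 10 genes of largest fold that define the class. Ndufa11, an accessory subunit of complex I, had 1351, 1255, 1254 and 1264 CPM (3.46, SE 0.05). The 2 members that were lower were Ndufa4l2 (-2.18, SE 0.42) and Cox4i2 (-1.64, SE 0.56). Of the mitochondrial genes, mt-Nd2 had the largest difference (1.30, SE 0.07).

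Smooth-muscle-like cells were the other class in which most members were higher, 71 of 98 nuclear members against 26.5% of all genes, with 10 lower (22.3% of all genes), and all 13 mitochondrial members were higher. The medians were 0.45 for nuclear and 0.97 for mitochondrial members. Ndufa4l2 (log2 difference 4.59, SE 0.17) and Cox4i2 (4.04, SE 0.21) were the largest, followed by Ndufa5 (1.38), the complex II membrane anchor Sdhc (1.33) and Cox7a1 (1.11). Cox6b2 (-1.76) and Cox8b (-1.51) were among the members that were lower.

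Astrocyte-like cells combined high mitochondrial members with nuclear members slightly below the bulk of genes (median log2 difference -0.08, against 0.09 over all genes). There, 12 of 13 mitochondrial members were higher and none lower, whereas 22 nuclear members were higher (41.4% of all genes) and 38 lower (29.6%). Cox7b2, an isoform of Cox7b, was nearly confined to them at 6.12, 6.81, 7.01 and 9.70 CPM, which rests on 61, 73, 49 and 69 UMIs, against 0, 0.110, 0 and 0.191 CPM in endothelial-like cells, and 0 UMIs in all pericyte-like, smooth-muscle-like, T/NK-like and granulocyte-like sums. The assembly factor Ndufaf4 was also higher (1.74), and Cox7a2l, a factor for respiratory supercomplexes, was lower (-1.76).

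In ependymal-like cells 16 nuclear members were higher (37.2% of all genes) and 56 lower (31.6%), and 8 of the 12 assembly factors were among those higher, including the complex II factor Sdhaf4 (log2 difference 1.5) and the complex I factors Ndufaf3 (1.42) and Ndufaf8 (1.20). Of the mitochondrial members, 6 were higher and 2 lower. T/NK-like cells had 17 nuclear members higher and 42 lower, where 27.5% of all genes were higher and 27.5% lower. Cox7a2l stood out there with 562, 551, 488 and 512 CPM (1.27), as did Atp5g2, another gene of the c subunit (1.10).

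The remaining classes had most nuclear members below the mean of the other classes. Microglia-like cells had 5 higher (39.9% of all genes) and 82 lower (27.8%) with a median of -0.57, and 11 of 13 mitochondrial members were lower. The 5 higher members were Cox6a2, Cox7a2l (0.68), Ndufa9 (0.55), Sdhaf3 (0.53) and Ndufaf7 (0.24). For Cox6a2 no size is given, since 2 of the other classes had 0 UMIs in all mice and its level in microglia-like cells differed between ages (6.25, 4.68, 62.2 and 87.1 CPM, against means of 1.51 CPM or less in the other tested classes). Endothelial-like cells had 10 nuclear members higher (40.2% of all genes) and 70 lower (25%), led by Ndufa4l2 (1.85) and Cox4i2 (1.23), with Cox6b2 (-2.12) and Cox8a (-1.12) among the lower. The 8 pericyte markers summed to 1113, 1249, 1135 and 1318 CPM in endothelial-like cells, against 51.2 to 91.6 CPM in microglia-like cells. Their part in the endothelial-like levels of Ndufa4l2 and Cox4i2 was not tested. Granulocyte-like cells had 8 higher (22.9% of all genes) and 68 lower (28.6%), and 12 of 13 mitochondrial members were lower with a median of -1.39. Pericyte-like cells had 4 higher (21.5% of all genes) and 72 lower (17.9%).

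Pericyte-like cells held the clearest shift toward alternative isoforms. Ndufa4l2, the hypoxia-inducible paralog of Ndufa4, measured 1133, 1316, 1410 and 1750 CPM in them (log2 difference 7.39, SE 0.14), and Cox4i2, the isoform of subunit IV described in oxygen-sensing cells and lung, measured 667, 738, 864 and 912 CPM (6.80, SE 0.16). Ndufa4 itself was at 105, 79.5, 81.3 and 97.0 CPM there, against means of 615 CPM in smooth-muscle-like and 278 CPM in microglia-like cells (-2.97, SE 0.11). Cox4i1 showed no such low level in pericyte-like cells, at 576, 709, 672 and 709 CPM. Over the tested classes its means ranged from 417 CPM in granulocyte-like to 3031 CPM in choroid-plexus-like cells. Cox4i2 was thus found beside Cox4i1 and not in its place. As a share of the pair's UMIs, Ndufa4l2 made up 91.5%, 94.3%, 94.5% and 94.7% of Ndufa4 plus Ndufa4l2 in pericyte-like cells, 34.8%, 26.2%, 14.8% and 19.5% in smooth-muscle-like cells and 5.77% to 7.07% in endothelial-like cells. Cox4i2 made up 53.6%, 51.0%, 56.3% and 56.2% of Cox4i1 plus Cox4i2 in pericyte-like cells (mean 54.3% ± 2.52), 9.64% ± 3.47 in smooth-muscle-like cells and 2.95% ± 0.624 in endothelial-like cells. For both pairs the pericyte-like values of the 4 mice lay above those of every other tested class. Ndufa4l2 was among the 10 genes of largest fold that define the pericyte-like class, and neither gene was a gating marker.

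Per cell, a UMI of Ndufa4l2 was found in 84.1%, 89.7%, 90.5% and 92.6% of pericyte-like cells, at a median of 3266 to 3687 UMIs per cell. The share in microglia-like cells, which serve here as the background of free RNA, was 0.881% to 1.98% at medians of 6386 to 6937 UMIs. Cox4i2 was found in 74.3%, 73.7%, 81.1% and 81.2% of pericyte-like cells and in 0.503% to 1.24% of microglia-like cells. Both shares in pericyte-like cells were far above this background in each mouse despite the lower depth.

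**Figure D2:**
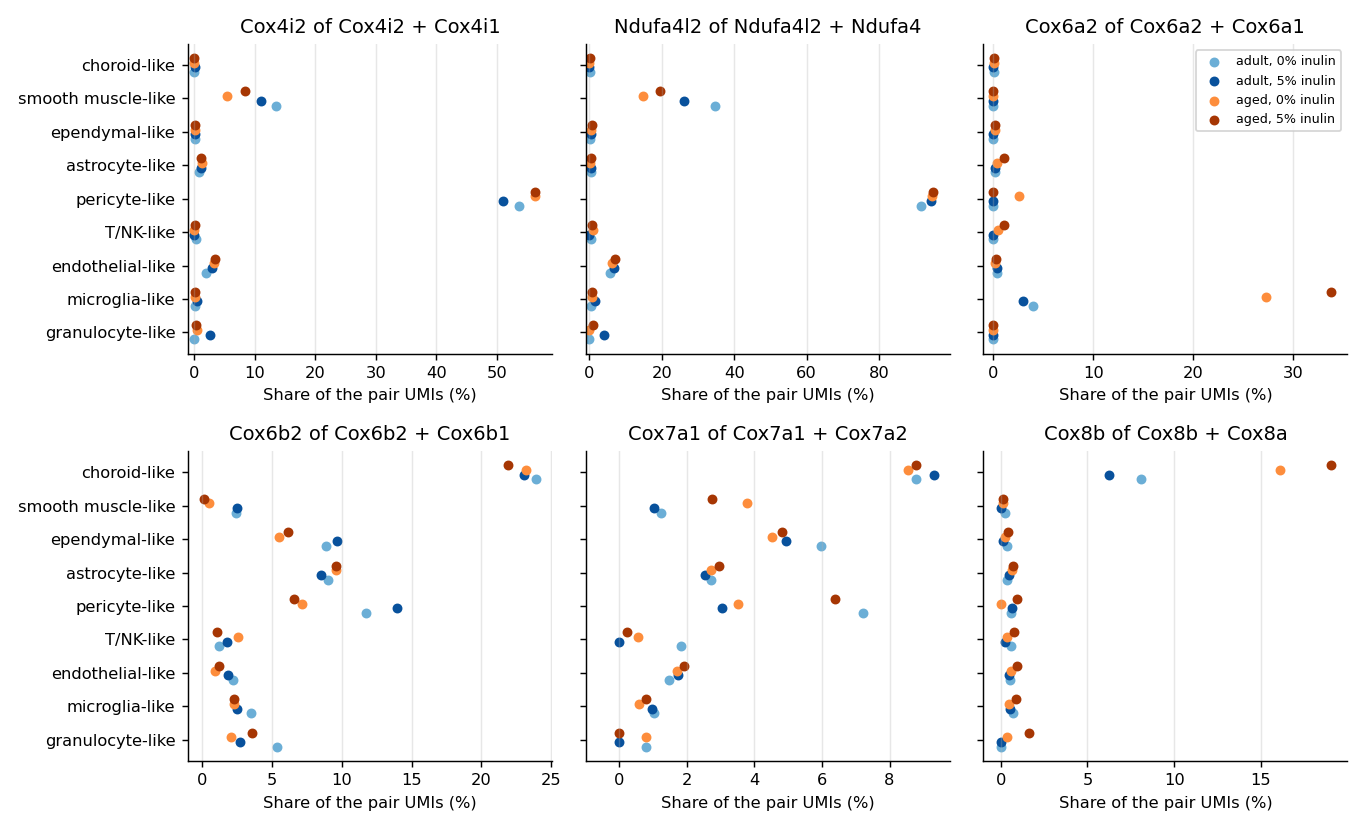
Share of the UMIs of an isoform pair (percent, horizontal axes) taken by the named isoform in each tested cell class (vertical axis), with 1 point per mouse. Ndufa4l2 and Cox4i2 are high in pericyte-like cells (means 93.8% and 54.3%), and Cox6b2 and Cox8b in choroid-plexus-like cells (means 23.0% and 12.4%).

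The choroid-plexus-like shares showed a different set of isoforms. Cox6b2 made up 23.9%, 23.1%, 23.2% and 21.9% of Cox6b1 plus Cox6b2, Cox7a1 made up 8.77%, 9.32%, 8.56% and 8.78% of Cox7a1 plus Cox7a2, and Atp5g1 made up 77.8%, 77.0%, 76.6% and 76.2% of Atp5g1 plus Atp5g3. The shares of Cox6b2 and Atp5g1 exceeded those of every other tested class in each mouse. Pericyte-like cells were next for Cox6b2 (9.85% ± 3.58), and microglia-like cells for Atp5g1 (65.4% ± 1.20). Annotated near-identical copies (at least 98% over at least 150 bases) were found for 21 nuclear members, Atp5g1 among them, so reads of those genes could be split or lost in the authors' counting.

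Promoter sequences are shown for the pair Cox8a and Cox8b and for Cox6a1, whose partner Cox6a2 was not matched to a promoter. Of the 102 nuclear members, 81 were matched to a promoter of 300 bases (250 before to 50 after the gene's start) in the RefSeq annotation of GRCm38.p6, 2 of them through a synonym. Cox4i1, Cox4i2, Ndufa4l2 and Cox6a2, on which other results on isoforms rest, were among the 21 unmatched. Letters searched on both strands are in capitals, GCGCATGCG or its reverse complement CGCATGCGC for the core of the NRF1 site, CCGGAAG or CTTCCGG for that of the ETS or GABP site, AAGATGGC or GCCATCTT for that of the YY1 site and TATAAA or TTTATA for the TATA box, and each sequence runs 5′ to 3′ on the minus strand.
Cox6a1, chr5:115348909-115349208: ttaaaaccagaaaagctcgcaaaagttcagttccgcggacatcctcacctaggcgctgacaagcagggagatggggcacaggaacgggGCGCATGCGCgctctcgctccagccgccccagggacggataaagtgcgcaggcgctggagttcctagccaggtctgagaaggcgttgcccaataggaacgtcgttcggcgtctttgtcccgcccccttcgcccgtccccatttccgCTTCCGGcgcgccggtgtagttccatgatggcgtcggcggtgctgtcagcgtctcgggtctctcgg
Cox8a, chr19:7217567-7217866: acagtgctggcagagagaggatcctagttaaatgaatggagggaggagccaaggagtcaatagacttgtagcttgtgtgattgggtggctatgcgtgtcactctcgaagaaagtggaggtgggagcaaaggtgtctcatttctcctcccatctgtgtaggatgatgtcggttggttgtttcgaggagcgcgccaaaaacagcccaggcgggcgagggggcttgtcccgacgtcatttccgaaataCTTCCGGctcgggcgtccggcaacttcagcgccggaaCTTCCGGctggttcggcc
Cox8b, chr7:140900397-140900696: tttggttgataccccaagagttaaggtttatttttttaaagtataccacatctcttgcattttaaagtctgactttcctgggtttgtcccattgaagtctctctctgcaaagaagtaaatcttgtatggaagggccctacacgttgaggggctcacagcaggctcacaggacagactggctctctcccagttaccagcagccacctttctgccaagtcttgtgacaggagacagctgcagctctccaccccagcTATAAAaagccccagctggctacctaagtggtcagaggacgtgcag

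The Cox6a1 window held overlapping NRF1 letters on both strands at positions -162 and -161 from the start and ETS letters at -16. Cox8a held ETS letters at -5 and 32, and Cox8b held TATAAA at 4 and none of the other letters. NRF1 letters were present in 10 of 81 member promoters (12.3%), against 489 of 27025 promoters of all genes (1.81%). ETS letters were in 21 (25.9%) against 9.12%, YY1 letters in 10 (12.3%) against 2.88%, and TATAAA in 9 (11.1%) against 14.2%. Atp5g2 held the overlapping NRF1 letters at -42 and -41, and Cox6b1 held ETS letters at -28. None of these letters were found in the windows of Ndufa4, Cox6b2, Cox7a1, Cox7a2, Cox7a2l, Atp5g1 or Atp5g3.

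Age was compared within each class, and microglia-like cells had by far the most members called. In the aged mice 36 of 97 nuclear members were higher and 0 lower (edgeR quasi-likelihood test, adjusted p under 0.05), where 9.95% of the 14821 genes tested were higher. With a fold above 1.5 as well, 6 of 97 nuclear members remained, which is near the 6.34% of all genes. At that threshold the nuclear members did not stand out from other genes. The median log2 fold change was 0.24 over nuclear members and -0.01 over all genes, and 89 nuclear members had a positive value. The share of positive values over all genes is not given. In the diet comparison of the same cells 90 of 97 nuclear members were positive with 0 called, so the count of positive values is not read as a result about age. For lower members, 0 were called by DESeq2 too, and 56 nuclear members had an unadjusted p under 0.05 in either direction, as did 28.5% of all genes. By complex, 5 of 8 nuclear members of III, 11 of 16 of IV, 7 of 17 of V, 13 of 48 of I and 0 of 8 of II were higher, and 0 of the 12 assembly factors were called (median 0.05).

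These fold changes carry the TMM normalization of edgeR, which sets the bulk of genes near zero difference. When library totals alone were used, a choice made after seeing the data, the median of all genes in aged microglia-like cells was -0.23, 12 nuclear members were higher and 3 lower, and over all genes the split went from 1475 higher and 722 lower to 974 higher and 3209 lower. The 12 were all among the 36, and the 36 were all positive. Relative to the shifted median of all genes, the nuclear median was again 0.24. The change of scaling moves every gene by nearly the same amount, so this is no separate support. On the plain CPM scale 35 of 97 nuclear members were higher in both aged mice than in both adult mice, and 32 were lower in both. The same count over all genes is not given, so these counts are not read as a result about the members. Under library totals the nuclear median itself was 0.02. The rise of the nuclear members is therefore a rise relative to the other genes of these cells.

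Cox6a2, the heart and muscle isoform of subunit VIa of complex IV, had the largest change. It measured 6.25 and 4.68 CPM in the adult mice and 62.2 and 87.1 CPM in the aged mice (log2 fold change 3.99, SE 0.22, adjusted p = 3.96e-06). Both aged mice stood far above both adult mice. A Cox6a2 UMI was found in 2.96% (95% exact binomial interval 2.18 to 3.91) and 2.17% (1.51 to 3.00) of adult and in 17.2% (15.4 to 19.0) and 22.9% (20.9 to 25.1) of aged microglia-like cells. With each cell thinned to 2000 UMIs the shares were 0.866%, 0.661%, 7.23% and 10.3%. In endothelial-like cells the shares were 0.145%, 0.0364%, 0.248% and 0.400%, and no smooth-muscle-like cell had a Cox6a2 UMI. Of Cox6a1 plus Cox6a2, the isoform made up 3.93%, 3.00%, 27.2% and 33.7% of UMIs in microglia-like cells. The widely expressed Cox6a1 went from 153 and 151 to 166 and 171 CPM (0.37, adjusted p = 0.0116).

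Cox6a2 lies at chr7:128205435-128206387 on the minus strand of GRCm38, inside the span of Itgad (chr7:128154376-128223816, plus strand), an integrin gene. Itgad was at 0, 0.477, 0.533 and 0.234 CPM in microglia-like cells. The nearby genes 4931431B13Rik (0.0961, 0.0955, 0.228 and 0.546 CPM) and Gm44850 (0, 0.191, 0.304 and 0.546 CPM) were higher in both aged mice. These levels are too low to show whether the neighbours changed together with Cox6a2.

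The other nuclear members called had log2 fold changes of 0.68 or less. Uqcrh, the hinge subunit of complex III, measured 327, 314, 407 and 476 CPM (log2 fold change 0.68, SE 0.11, adjusted p = 0.00254). Ndufa1, a small complex I subunit, measured 110, 109, 144 and 153 CPM (0.66, SE 0.08, adjusted p = 0.00058). Atp5mpl and Atp5l, small membrane subunits of ATP synthase, measured 136, 131, 165 and 191 CPM (0.64) and 178, 174, 240.4 and 229.9 CPM (0.63). For each of these genes the aged mice were above the adult mice, without overlap. Of complex IV, Cox8a measured 444, 461, 561 and 634 CPM (0.62), Cox7a2l 340.2, 351, 412 and 467 CPM (0.57) and Cox4i1 581, 583, 691 and 753 CPM (0.53). Cox7c (0.51), Cox6c (0.46), Cox6b1 (0.43), Cox7a2 (0.31) and the ATP synthase gene Atp5g1 (0.29) were also higher.

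**Figure D3:**
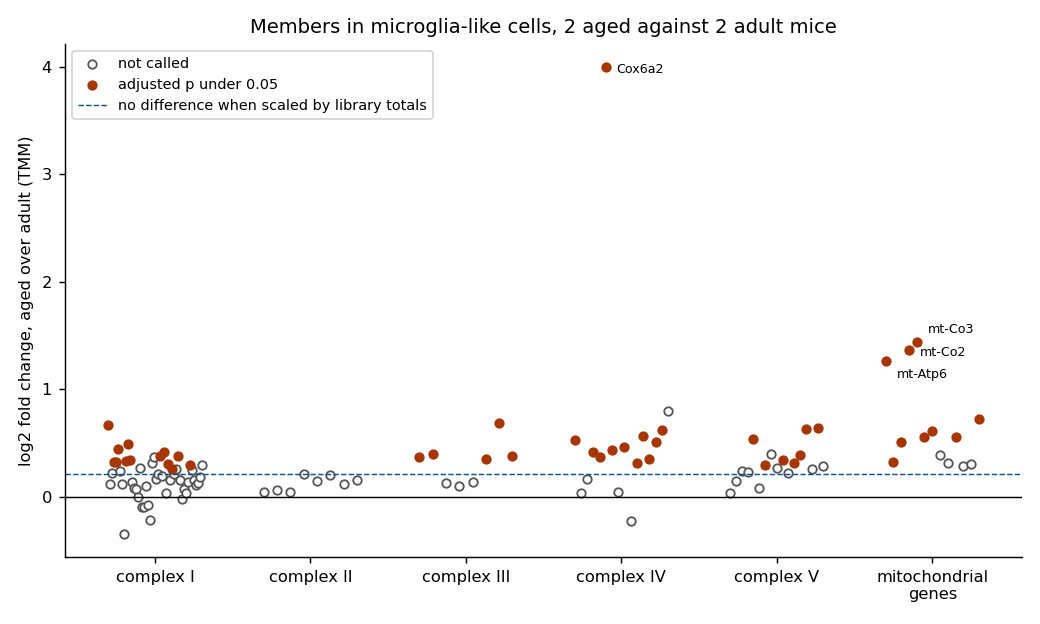
Log2 fold change, aged over adult (vertical axis), of every member tested in microglia-like cells, by complex for nuclear members and with the mitochondrial members at the right. Filled points had an adjusted p under 0.05, among them Cox6a2 at 3.99, and the dashed line is where no difference would lie under library totals.

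Of the 13 mitochondrial members, 9 were higher in aged microglia-like cells and none lower, with a median log2 fold change of 0.55. The largest were mt-Co3 (33.4, 37.2, 103 and 63.2 CPM, log2 fold change 1.44), mt-Co2 (110, 126, 333 and 195 CPM, 1.36) and mt-Atp6 (482, 558, 1304 and 853 CPM, 1.26). In each of the 3 the aged mouse fed 0% inulin was the highest and the aged mouse fed 5% came next. The others called were mt-Nd6 (0.72), mt-Nd1 (0.61), mt-Cytb (0.56), mt-Nd4 (0.55), mt-Co1 (0.51) and mt-Atp8 (0.32), for which both aged mice were above both adult mice. Values for mt-Nd2, mt-Nd3, mt-Nd4l and mt-Nd5 were positive and did not pass.

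As shares of UMIs, the nuclear members of microglia-like cells took 1.33%, 1.34%, 1.40% and 1.49%, and the mitochondrial members 1.24%, 1.35%, 1.6% and 1.68%. Neither share overlapped between ages (aged minus adult 0.110 and 0.344 percentage points, exact two-sided permutation p = 0.33 for each, the smallest that 2 against 2 allows). The ratio of nuclear to mitochondrial UMIs was 1.07, 0.990, 0.873 and 0.885, lower in the aged mice without overlap. Endothelial-like cells had a mitochondrial share of 2.00%, 2.02%, 2.34% and 2.27%, also without overlap (difference 0.293, exact p = 0.33), and an overlapping nuclear share (exact p = 1). In all, the mitochondrial share was higher in the aged mice without overlap in 6 of the 9 classes, which also include pericyte-like (difference 0.212), ependymal-like (0.262), choroid-plexus-like (0.342) and T/NK-like cells (0.198), each with the same exact p of 0.33. Over the mitochondrial members without a near-identical copy, it did so in 2, microglia-like and endothelial-like cells. In astrocyte-like cells both shares overlapped (exact p = 0.667 each). The nuclear share was also higher in aged ependymal-like cells without overlap (0.0480), and lower in aged smooth-muscle-like cells (-0.0536). It was lower as well in aged granulocyte-like cells (1.13%, 1.10%, 0.947% and 0.967%) and in aged T/NK-like cells (1.96%, 1.89%, 1.76% and 1.84%), without overlap (exact p = 0.33 each). Counting error was small beside the differences in microglia-like cells, at most 0.00705 percentage points for either share. It was wider in the smaller classes, up to 0.0523 for the mitochondrial share of pericyte-like cells. For the nuclear share it was 0.0425 in T/NK-like, 0.0332 in smooth-muscle-like and 0.0204 in ependymal-like cells. Beside the differences of -0.0536 in smooth-muscle-like and 0.0480 in ependymal-like cells it was not small.

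Other measures moved with age in the microglia-like sums. Mean UMIs per cell were 6550, 6491, 7546 and 7797. The summed level of the 11 microglia markers was 47538, 48235, 44116 and 43014 CPM, that of the 8 choroid plexus markers 6637, 5352, 3133 and 3264 CPM, that of the 7 macrophage markers 70.6, 76.3, 115 and 110 CPM and that of the 8 T/NK markers 23.7, 16.6, 54.4 and 69.6 CPM, with none of these markers at 0. Their part in the changes of the members was not tested. With cells thinned to 2000 UMIs, 15 of 94 nuclear members were called higher, where 6.20% of all genes were.

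Among the libraries, mt-Co2, mt-Co3 and mt-Atp6 behaved unlike the other mitochondrial genes. In the aged mouse fed 0% inulin they were above the mean of the adult mice by a median factor of 2.21 (mt-Co2, range over the 9 classes 2.06 to 2.82), 2.15 (mt-Co3, 1.56 to 2.92) and 2.10 (mt-Atp6, 1.74 to 2.51). In the aged mouse fed 5% the median factors were 1.29, 1.28 and 1.34. The aged 0% mouse was highest in 9 of 9 classes for all 3 genes. In the same library mt-Nd3 was at a median factor of 0.669 (range 0.384 to 0.771), against 1.03 in the aged mouse fed 5%, while the 9 other mitochondrial genes had median factors of 0.913 to 1.08.

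An annotated near-identical copy was found for 7 mitochondrial members, for mt-Atp6 a run of 678 identical bases in Gm10925, for mt-Co2 681 bases in Gm28661 and for mt-Co3 783 bases in Gm28437. The copies themselves held 0 to 17 UMIs per mouse. A copy was also found for mt-Nd3 (345 bases), which was at a median factor of 0.669 in the aged 0% library. Copies of mt-Nd4 (876 bases), mt-Co1 (483) and mt-Nd4l (294) were found too, with median factors of 1.04, 1.08 and 0.913 there. The 6 members without a copy had median factors of 0.973 (mt-Nd5) to 1.02 (mt-Cytb). Over the 6 mitochondrial members without a copy, the microglia-like share went from 0.90% to 1.10% (0.196 percentage points, no overlap, exact p = 0.33). The part of the copies and of the single library in these levels was not tested.

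**Figure D4:**
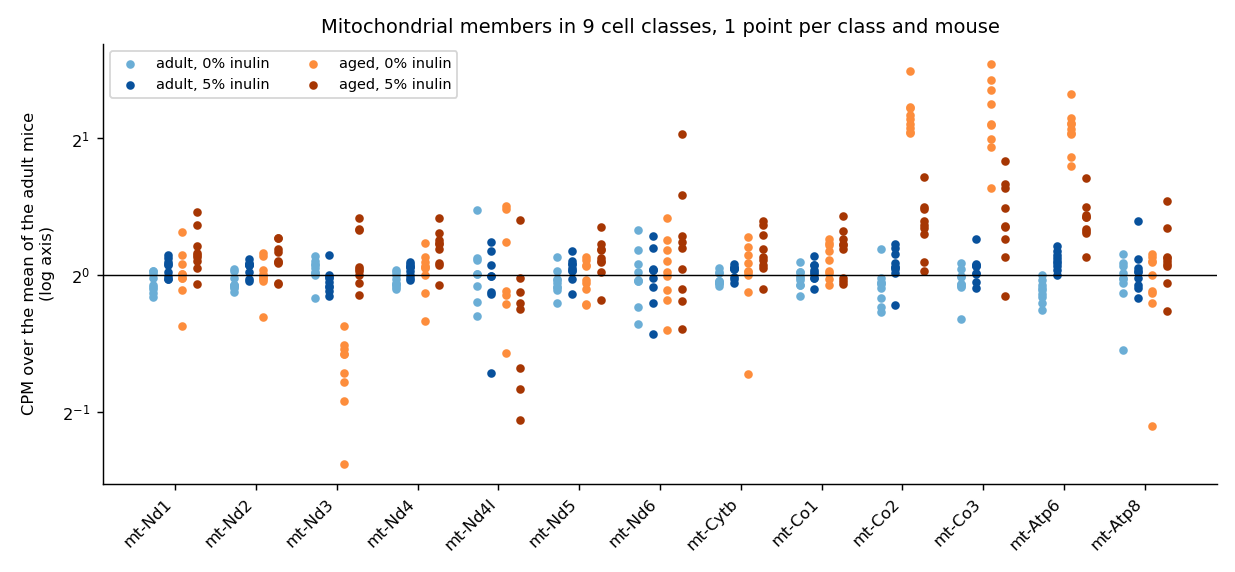
Level of each mitochondrial member over the mean of the adult mice (vertical axis, log scale) in each of the 4 mice, with 1 point per cell class. mt-Co2, mt-Co3 and mt-Atp6 are at median factors of 2.10 to 2.21 in the aged mouse fed 0% inulin and 1.28 to 1.34 in the aged mouse fed 5%, and mt-Nd3 is at 0.669 and 1.03.

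In the other 8 classes few members passed, and most nuclear ones were isoforms of restricted expression. Choroid-plexus-like cells had 3 nuclear and 3 mitochondrial members called, all higher, where 5.39% of all genes were called. Cox8b went from 397 and 281 to 762 and 966 CPM (log2 fold change 1.55, SE 0.13, adjusted p = 2.31e-08), without overlap. A Cox8b UMI was found in 45.2%, 47.6%, 67.2% and 82.2% of choroid-plexus-like cells, and in 29.7%, 28.1%, 54.0% and 64.3% once thinned to 2000 UMIs, against 2.01%, 1.43%, 2.13% and 3.83% of microglia-like cells. Cox8b made up 8.11%, 6.26%, 16.1% and 19.0% of Cox8a plus Cox8b. The gene lies at chr7:140898945-140900446 on the minus strand. The complex I members Ndufb5 (478, 518, 556 and 580 CPM, 0.39) and Ndufb9 (667, 680.0, 726 and 789 CPM, 0.37) were called with adjusted p of 0.0242 and 0.0307, and mt-Co3 (1.26), mt-Co2 (1.00) and mt-Atp6 (0.98) were the mitochondrial ones. Without the upper limit on UMIs the mitochondrial calls were lost (adjusted p of 0.106, 0.0865 and 0.0837), and that of mt-Co3 also with thinned cells (0.242). Ndufb5 and Ndufb9 were no longer called by DESeq2 (adjusted p of 0.0837 and 0.0827), nor without the adult mouse fed 0% (0.484 and 0.445) or the aged mouse fed 5% inulin (0.105 and 0.189), nor was Ndufb9 without the adult mouse fed 5% (0.0767). The summed level of the 8 choroid plexus markers in these cells was 171444, 198705, 244425 and 243413 CPM, with none at 0, and its part in the change of Cox8b was not tested.

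In smooth-muscle-like cells the isoforms shared with pericytes were lower with age. There 1 nuclear member was higher, 3 were lower and 2 mitochondrial members were higher (5.78% of all genes called). Ndufa4l2 went from 287 and 232 to 111 and 152 CPM (log2 fold change -0.96, SE 0.15, adjusted p = 0.000272), and Cox4i2 from 166 and 139 to 62.0 and 89.7 CPM (-0.99, SE 0.16, adjusted p = 0.000478). Neither overlapped between ages. Cox6b2 fell from 12.5 and 12.5 to 2.38 and 0.823 CPM (-2.75, SE 0.61, adjusted p = 0.00782), which rests on 13, 14, 4 and 1 UMIs. Cox7a1 rose from 8.62 and 7.13 to 25.6 and 18.9 CPM (1.55, SE 0.37, adjusted p = 0.0138), on 9, 8, 43 and 23 UMIs. The mean of Cox6b2 in choroid-plexus-like cells was 387 CPM. The 8 choroid plexus markers summed to 4905, 4176, 2006 and 2701 CPM in smooth-muscle-like cells. Their part in the fall of Cox6b2 was not tested. The Cox6b2 call was lost without either adult mouse or without the aged mouse fed 5% (adjusted p 0.128 to 0.208), and the Cox7a1 call without the aged mouse fed 0% (adjusted p = 0.20). A UMI of Ndufa4l2 was found in 59.2%, 50% (73 of 146 cells), 33.3% and 33.1% of smooth-muscle-like cells, and one of Cox4i2 in 53.8%, 56.2%, 35.3% and 36.8%, although mean UMIs per cell were higher in the aged mice (8028, 7688, 10754 and 8939).

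The summed level of the 8 pericyte markers in smooth-muscle-like cells was 4505, 3493, 2527 and 2482 CPM, with none at 0, and that of the 7 smooth muscle markers was 37414, 42614, 50016 and 46234 CPM. The pericyte markers were thus lower in the aged mice, as were Ndufa4l2 and Cox4i2, and their part in this difference was not tested. In pericyte-like cells the same 2 genes did not pass (Cox4i2 667, 738, 864 and 912 CPM and Ndufa4l2 1133, 1316, 1410 and 1750 CPM).

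**Figure D5:**
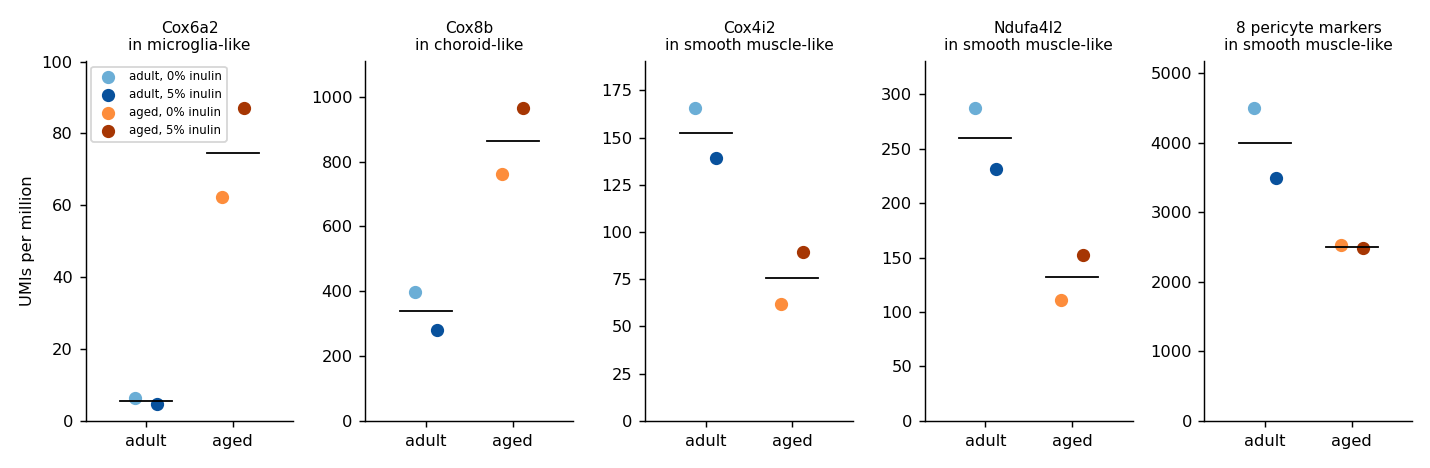
Level of 4 restricted isoforms with an age call, and summed level of 8 pericyte markers in smooth-muscle-like cells (CPM, vertical axes from 0), with 1 point per mouse and the mean of each age as a line. Cox6a2 in microglia-like cells and Cox8b in choroid-plexus-like cells are higher in both aged mice, and Cox4i2, Ndufa4l2 and the pericyte markers in smooth-muscle-like cells are lower in both.

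In the remaining classes the calls were mostly the mitochondrial genes that stood apart in the aged 0% library. Ependymal-like cells had mt-Co2 (0.80), mt-Co3 (0.79) and mt-Atp6 (0.77) higher and 0 nuclear members called (3.15% of all genes called). Pericyte-like cells had mt-Co2 (0.80) and mt-Atp6 (0.74) higher and 0 nuclear members (0.75%). Without the aged mouse fed 0% inulin, mt-Co2 and mt-Atp6 in pericyte-like cells, mt-Co3 in ependymal-like cells and mt-Atp6 (0.58) and mt-Co3 (0.69) in smooth-muscle-like cells no longer passed, with adjusted p of 0.132 to 0.605. Astrocyte-like cells had 1 nuclear member, Ndufb4 (96.1, 86.2, 126 and 114 CPM, 0.41, adjusted p = 0.0484), where 1.59% of all genes were called, and 0 mitochondrial members. The Ndufb4 call did not hold under several alternatives (adjusted p up to 0.149), among them DESeq2 (0.0662) and leaving out the adult mouse fed 5% (0.0968), the aged mouse fed 0% (0.137) or the aged mouse fed 5% inulin (0.121).

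Endothelial-like (3.32% of all genes called), T/NK-like (0.533%) and granulocyte-like cells (1.62%) had 0 members called by edgeR. In endothelial-like cells 12 of 97 nuclear and 8 of 13 mitochondrial members had an unadjusted p under 0.05, where 21% of all genes did. In T/NK-like cells 2 of 87 nuclear and 6 of 12 mitochondrial members did (9.09% of all genes), and in granulocyte-like cells 10 of 79 and 2 of 11 (15.2%). The nuclear counts were thus below the share over all genes in each of these classes. In granulocyte-like cells 19 of 79 nuclear members were positive, with a median of -0.17, against -0.01 over all genes. The share of positive values over all genes is not given, and of all 4935 genes tested 64 were lower and 16 higher. This count is therefore not read as a result about the members.

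Whether the age effect itself differed between classes was tested as an interaction, the effect in a class minus the mean effect of the other 8, with the mouse as a block. In microglia-like cells 18 nuclear and 6 mitochondrial members had a greater age effect, where 2.85% of all genes did. Uqcrh (log2 difference of effects 0.64, SE 0.10), Ndufa1 (0.62), Atp5mpl (0.61), Cox8a (0.55) and Atp5e (0.53) were the largest nuclear ones, and mt-Co3 (0.60), mt-Nd6 (0.56) and mt-Co2 (0.51) the largest mitochondrial ones. In smooth-muscle-like cells Cox6b2 alone had a more negative age effect than the mean of the other classes (-2.46, SE 0.59, adjusted p = 0.0295), where 0.197% of all genes did. The test called neither Ndufa4l2 (adjusted p = 0.594) nor Cox4i2 (0.702) in smooth-muscle-like cells, nor Cox8b in choroid-plexus-like cells (adjusted p = 1). For Cox6a2 no difference of effects could be estimated, since it had 0 UMIs in all 4 smooth-muscle-like and granulocyte-like sums, and its age effect is shown in microglia-like cells only.

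For diet, 5% against 0% inulin, no member was called in any class at an adjusted p under 0.05, by edgeR or by DESeq2. Each diet group held 1 adult and 1 aged mouse and age was not in this fit, so differences with age add to its spread. Unadjusted p under 0.05 was reached by 66 of 14821 genes in microglia-like and 188 of 15112 in astrocyte-like cells. The lack of calls is therefore not read as a lack of a diet effect. In all, 0% of the genes tested were called in endothelial-like, microglia-like, astrocyte-like, pericyte-like, smooth-muscle-like, ependymal-like, choroid-plexus-like and T/NK-like cells and 0.0811% in granulocyte-like cells. Unadjusted p under 0.05 was reached by 5 nuclear members in pericyte-like cells (Ndufaf8 1.04, Ndufb9, Ndufb3, Atp5h and Ndufa5, where 3.82% of all genes reached it), 1 nuclear member in endothelial-like cells (Ndufa4l2, 0.31, against 1.43%), a nuclear and a mitochondrial member in T/NK-like cells (Ndufaf7 -1.27 and mt-Nd3 0.65, against 3.89%) and 2 mitochondrial members in granulocyte-like cells (mt-Atp8 1.30 and mt-Nd5 0.50, against 2.33%). In endothelial-like cells Ndufa4l2 was at 31.3, 37.7, 33.0 and 41.6 CPM. The 8 pericyte markers summed to 1113, 1249, 1135 and 1318 CPM there, and their part in its diet value was not tested. For shares of UMIs the exact test of 2 against 2 cannot give a p below 0.33, so it cannot call a difference by diet. The nuclear share did not overlap between diets in 2 of 9 classes, higher with 5% inulin in endothelial-like (by 0.0693 percentage points) and pericyte-like cells (0.200), and the mitochondrial share in 2, lower in astrocyte-like cells (-0.136) and higher in granulocyte-like cells (0.103). Over the mitochondrial members without a near-identical copy, the share was higher with 5% inulin without overlap in 4 classes and lower in 0. These were pericyte-like (0.113), choroid-plexus-like (0.269), T/NK-like (0.0981) and granulocyte-like cells (0.0870). The astrocyte-like values then overlapped.

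Other gene groups of energy metabolism were counted in the same age comparison of microglia-like cells, where 9.95% of all genes were higher. Of 17 glycolysis genes 9 were higher and 0 lower (median 0.42), among them Tpi1 (0.90), Pkm (0.88), Gapdh (0.81), Pgk1 (0.75) and Aldoa (0.73). Of 16 genes of the tricarboxylic acid cycle 0 were called (median 0.06). Of 32 assembly and biogenesis genes outside the member families 4 were higher, Slirp (0.40), Uqcc2 (0.32), Uqcc3 (0.30) and Cox17 (0.29), and the transcription factors Nrf1 (-0.09) and Tfam (-0.03) and the coactivator Ppargc1a (-1.05, adjusted p = 0.106) were not called. Of 79 mitochondrial ribosome genes 6 were higher, and of 84 cytosolic ribosome genes 79 were higher (median 0.75). Of 15 genes of the response to dissociation 9 were higher and 2 lower (median 0.59), and their part in the other changes was not tested. Under library totals, which lowered the median of all genes to -0.23, 7 of the glycolysis genes were higher and 3 lower, 0 of the assembly and biogenesis genes were higher and 3 lower, 3 of the mitochondrial ribosome genes were higher and 8 lower, and 0 of the tricarboxylic acid cycle genes were higher and 3 lower. The cytosolic ribosome genes then had 79 higher and 1 lower, and the genes of the response to dissociation 9 higher and 2 lower. Of all 14821 genes tested, 974 (6.57%) were then higher and 3209 lower.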

How the data were processed

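Whole-brain suspensions of 4 mice were sequenced as 10X 3′ single-cell libraries. The authors aligned reads to GRCm38 with Cell Ranger 3.1.0 and deposited raw UMI counts per gene and cell, without normalization. Cells above 3 median absolute deviations over the median in UMIs or mitochondrial share were left out, classes were gated on marker lists (at least 3 markers, score 1.5 times that of the next class), and UMIs were summed per mouse and class (scanpy 1.11.5, Python 3.11.15). Classes with at least 50 cells in each mouse were tested with the edgeR 4.0.16 quasi-likelihood test (R 4.3.3, TMM, filterByExpr), p-values adjusted by Benjamini-Hochberg over all genes tested in a class. Standard errors were taken from the fold change and its F statistic. The steps were tested on simulated data.

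Shares were tested over mice with exact permutation tests. CPM is UMIs per 1000000 UMIs of the class, is not scaled by gene length and was compared between classes and mice only. The replicate is the mouse, with 1 mouse per combination of age and diet. P-values of the age test within a class therefore measure the spread between 2 mice of an age, which also differ in diet. Those of the diet test measure the spread between 2 mice of a diet, which also differ in age. The tests between classes, and of age effects between classes, had the mouse as a block. Their p-values measure the spread left between sums per mouse and class, not that between 2 mice of an age. Depth was 46955544 to 56600489 UMIs per mouse in kept cells, and binomial intervals (95%, Clopper-Pearson) cover counting error only. Near-identical copies were searched with BLAST 2.17.0. Transcripts of mt-Atp8 with mt-Atp6 and mt-Nd4l with mt-Nd4 overlap, and their reads cannot be fully told apart.

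Members filtered out by low counts were 5 in microglia-like, endothelial-like and astrocyte-like, 8 in choroid-plexus-like, 9 in ependymal-like, 11 in smooth-muscle-like, 14 in pericyte-like, 15 in T/NK-like and 23 in granulocyte-like cells for the age test. Named were all 13 mitochondrial genes, the isoform pairs, and per comparison up to 5 called members of largest positive and 5 of largest negative log2 fold change. A few further called members and list genes were named after their values were seen. The members and lists were chosen with earlier results of these data known. Alternatives were the limits on cells, a stricter gate (score ratio 2), Scrublet calls left out, cells thinned to 2000 UMIs, other normalizations, no filter, DESeq2 1.42.0, the other factor as covariate and leaving out each mouse.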

Additional observations from a re-analysis of the deposited data

Results flagged for a closer look

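Listed here are 6 members whose age effect in a class differed from the mean age effect of the other 8 tested classes (edgeR interaction, mouse as a block). They are the 5 of largest difference among the 18 nuclear and 6 mitochondrial members called in microglia-like cells, and Cox6b2 in smooth-muscle-like cells. In microglia-like cells the difference of effects on the log2 scale was 0.6424 for Uqcrh (SE 0.101, adjusted p = 2.28e-05), 0.6181 for Ndufa1 (SE 0.108, adjusted p = 0.000107), 0.6068 for Atp5mpl (SE 0.107, adjusted p = 0.000121), 0.5982 for mt-Co3 (SE 0.118, adjusted p = 0.00058) and 0.5574 for mt-Nd6 (SE 0.152, adjusted p = 0.0250). In smooth-muscle-like cells it was -2.456 for Cox6b2 (SE 0.589, adjusted p = 0.0295), which rests on CPM values of 12.5, 12.5, 2.38 and 0.823. These come from 13, 14, 4 and 1 UMIs. With 1 mouse per combination of age and diet, no group was large enough to look for a mouse far from the others.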

How the results depend on the processing

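The 36 nuclear members higher in aged microglia-like cells became 15 with cells thinned to 2000 UMIs, 12 under library totals (with 3 lower in place of 0) and 16 to 64 when each mouse was left out in turn (20 without the adult mouse fed 0%, 16 without the adult fed 5%, 64 without the aged fed 0%, 29 without the aged fed 5%), and the 9 mitochondrial members became 4 to 12. In the other 8 classes, the 8 nuclear calls became 14 without the mitochondrial limit, 21 without a count filter, 4 by DESeq2, 20 with diet as covariate and 6 to 16 with a mouse left out, and the 10 mitochondrial calls became 5 without the UMI limit, 32 without a filter, 5 by DESeq2, 17 with the covariate and 16 to 28. The 0 diet calls became 6 without a filter, 1 with age as covariate and 0 to 1. The 24 greater age effects in microglia-like cells became 37 without the UMI limit, 5 with thinned cells, 13 under library totals and 7 to 28. The age difference of the nuclear share in microglia-like cells (0.110) was 0.0630 with thinned cells, 0.0563 as a mean over cells and 0.0658 to 0.155 with a mouse left out, and that of the mitochondrial share (0.344) was 0.196 without genes that have copies and 0.290 to 0.398. With each mouse left out in turn, mt-Nd3 in microglia-like cells ranged from -0.22 (without the aged mouse fed 5%) to 0.71 (without the aged mouse fed 0%), and the nuclear share differences, reversed by the same choice, from -0.0125 to 0.102 in endothelial-like and from -0.00872 to 0.150 in astrocyte-like cells. The astrocyte-like mitochondrial difference (0.110) was 0.380 without the mitochondrial limit. The cause was not tested in any of these cases. Shares over all genes are not given beside the changed counts for the other 8 classes, for diet and for the greater age effects. Those counts are therefore not read as results about the members. Library totals and the genes without copies were chosen after seeing the data. A lone mouse left in an age is assumed to vary like the pair.

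Calls held under every alternative run for Cox6a2 in microglia-like cells (log2 fold change 3.63 to 4.29), Cox8b in choroid-plexus-like cells (1.32 to 1.80), Cox4i2 (-1.37 to -0.74) and Ndufa4l2 (-1.31 to -0.75) in smooth-muscle-like cells and Uqcrh in microglia-like cells (0.46 to 0.86), whereas in choroid-plexus-like cells Ndufb5 ranged from 0.07 to 0.54 (adjusted p up to 0.561) and Ndufb9 from 0.17 to 0.52 (up to 0.445). The class counts changed least, with 89 to 94 nuclear members higher in choroid-plexus-like cells, 60 to 77 in smooth-muscle-like cells and 74 to 86 lower in microglia-like cells. No paired analysis by replicate number was possible because each combination of age and diet has 1 mouse and the groups share a single replicate number. The fit with diet as covariate, which sets mice of the same diet against each other, called 39 nuclear and 8 mitochondrial members higher in aged microglia-like cells. In that fit 10.3% of all genes were higher. The mouse was a block only between classes of the same mice.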

Other observations

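Neuron-like and neuroblast-like cells were too few to test, and the mitochondrial share of neuron-like cells (mean 3.99%) was above the mean of each tested class, of which smooth-muscle-like cells had the highest (3.89%), with overlapping values. The nuclear members took 2.96%, 3.28%, 3.05% and 3.68% of the UMIs of neuron-like cells and 2.26%, 2.26%, 2.43% and 2.34% of neuroblast-like cells, in the order adult 0%, adult 5%, aged 0% and aged 5% inulin. The mitochondrial members took 3.65%, 3.87%, 4.41% and 4.05% in neuron-like cells and 1.47% to 1.65% in neuroblast-like cells. Mitochondrial rRNA, outside the members, took 1.49% of microglia-like UMIs in adult and 1.93% in aged mice on average. Within single cells of a class and mouse, the nuclear and mitochondrial shares were weakly related, with Spearman's rho of 0.0630 to 0.178 in microglia-like, -0.0837 to -0.0436 in endothelial-like and -0.0750 to 0.0371 in astrocyte-like cells (3 classes, 4 mice each, cells of a mouse sharing library and depth). Choroid plexus markers, summed, also fell with age in endothelial-like (5932, 5126, 2966 and 3450 CPM) and astrocyte-like cells (6153, 5123, 3263 and 3528 CPM).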
